A study of Homo sapiens with 9 samples.

Results

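The genes described here encode the respiratory chain and ATP synthase of mitochondria, in RNA-seq of SKOV3 cells, an established human ovarian cancer line. They were the protein-coding genes whose symbols begin with MT-, NDUF, UQCR, ATP5 or COX and a digit, together with SDHA to SDHD. This rule found 121 of the 58735 genes listed, 13 of them on the mitochondrial genome and 108 in the nucleus. The 3 groups held 3 libraries each: cells expressing WT CDK9 (WT), the same WT CDK9 cells given an ALK inhibitor for 24 h (Ai), and cells expressing Y19F-CDK9, a mutant whose tyrosine 19 cannot be phosphorylated (Y19F). In the study, the CDK9 forms were re-expressed in stable SKOV3 lines depleted of CDK9, so the Y19F form and the line carrying it cannot be told apart. Nothing in the labels says whether replicates were separate cultures, so p-values measure only the spread between these libraries. CDK9 is the kinase subunit of P-TEFb, which releases paused RNA polymerase II on nuclear genes, and ALK is a receptor tyrosine kinase.

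The chain passes electrons from NADH (complex I) or succinate (complex II) through ubiquinone, complex III and cytochrome c to oxygen at complex IV. Complexes I, III and IV pump protons, and ATP synthase (complex V) uses the return flow to make ATP. Complex II is wholly nuclear, while the other complexes join nuclear subunits with a few hydrophobic ones made inside the organelle. The mitochondrial genome is copied into long RNAs from both strands by its own polymerase, POLRMT, and these are cut at tRNAs into single mRNAs. Its mRNAs are thus not made by RNA polymerase II, whereas the nuclear subunits are.

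A pair of neighbouring mitochondrial genes share coding bases, and their sequences are given because counts there belong to both genes. MT-ATP8 and MT-ATP6, a pair of ATP synthase subunits, share 46 bases at chrMT:8527-8572 of hg38. MT-ND4L and MT-ND4, both core subunits of complex I, share 7 bases at chrMT:10760-10766, shown within the bases from 10745 to 10780. Capitals mark the start codon of the second gene and the last 3 listed bases of the first.
MT-ATP8 and MT-ATP6, shared bases: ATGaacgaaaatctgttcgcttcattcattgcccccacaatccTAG
MT-ND4L and MT-ND4, around the shared bases: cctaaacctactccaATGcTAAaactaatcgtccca
Both genes of each pair are carried by 1 mRNA, and the sources used here do not give how a read over shared bases was counted. MT-ATP8 had 156 CPM per kb over the 9 libraries (counts scaled to 1000000 per library, CPM, per kilobase of listed length), against 2490 for MT-ATP6, and its own level is therefore uncertain. MT-ND4L, at 1711 CPM per kb, lay close to MT-ND4 at 1739. MT-ND6 is the 1 mRNA read from the opposite strand, and whether counting used strand is not given, so its reads cannot be told apart from RNA antisense to it.

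Total counts were 18169050 to 20974903 in WT and Ai and 26485891 to 29320184 in Y19F. The epithelial keratin KRT8 and the ovarian lineage factor PAX8 were present in all groups at group means of 1306 to 1695 CPM and of 263.1 to 269.6 CPM, while PTPRC, PECAM1 and DCN, markers of leukocytes, endothelium and fibroblasts, did not pass the filter on low counts. Other markers differed between the groups. In Y19F against WT the keratins KRT8 and KRT18 were called higher by 0.38 and 0.39 on the log2 scale. The keratin KRT19 had means of 246, 284 and 104 CPM in WT, Ai and Y19F. For the epithelial adhesion gene EPCAM they were 21.2, 20.9 and 12.0 CPM. The collagen gene COL1A1, like DCN looked at as a marker of fibroblasts, was present at 104, 133 and 37.9 CPM. KRT19, EPCAM and COL1A1 were called lower in Y19F against WT, with log2 fold changes of -1.24, -0.82 and -1.46. KRT19 and COL1A1 were also called higher in Ai against WT, by 0.21 and 0.35. The SKOV3 marker ERBB2 had means of 1800, 2625 and 1470 CPM in WT, Ai and Y19F. It was called higher in Ai against WT (0.54), and lower in Y19F against WT (-0.29) and against Ai (-0.84). The part of these marker differences in the results was not tested. CDK9 was at 48.6, 45.6 and 55.0 CPM, and a level of RNA does not show which form was expressed. A pair of libraries stood apart in the mitochondrial genes: WT replicate 2 was the lowest WT library in all 13, and Y19F replicate 3 the highest Y19F library in 12, and each result resting on these is given without them too.

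The 13 mitochondrial mRNAs took 2.09%, 1.48% and 2.13% of all counts in WT, 1.48%, 1.68% and 1.68% in Ai, and 2.1%, 2.04% and 2.70% in Y19F. All 3 Y19F libraries were above all 3 Ai libraries, whereas WT spanned both, with replicate 2 at the level of Ai and the other two at the level of Y19F. Means were 1.90% ± 0.362 in WT, 1.62% ± 0.114 in Ai and 2.28% ± 0.369 in Y19F (SD, n = 3). The Y19F mean was 1.41 times the Ai mean (exact two-sided permutation test, p = 0.1, the smallest 3 against 3 libraries can give). For Ai against WT the same exact permutation test gave p = 0.4, and for Y19F against WT p = 0.5. The 95% Wilson intervals of single libraries reached at most 0.0065 percentage points to either side, which covers counting error only, so counting depth is small beside the spread between libraries. In bulk RNA, fewer mitochondria per cell and less RNA per mitochondrion cannot be told apart. The mitochondrial rRNA share was 0.309%, 0.241% and 0.318% in WT, 0.250%, 0.264% and 0.278% in Ai, and 0.322%, 0.331% and 0.409% in Y19F. All 3 Y19F libraries were above all WT and all Ai libraries (exact two-sided permutation test, p = 0.1 for each, the smallest possible). In the mRNA share, WT and Y19F overlapped. The margin in the rRNA share was small, from 0.318% in WT replicate 3 to 0.322% in Y19F replicate 1. The paper's methods do not say whether or how rRNA was removed before sequencing, and the part of such a step was not tested. For the rRNA share of Ai against WT the exact permutation test gave p = 0.4. Means were 0.290% ± 0.0422 in WT, 0.264% ± 0.0144 in Ai and 0.354% ± 0.0476 in Y19F (SD, n = 3). The 108 nuclear genes summed to 0.607% ± 0.0168, 0.620% ± 0.0132 and 0.598% ± 0.0181 of counts (SD, n = 3), with overlapping ranges in all 3 groups. The ratio of mitochondrial to nuclear counts of the chain was 2.37 to 3.57 in WT, 2.42 to 2.75 in Ai and 3.29 to 4.58 in Y19F.

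**Figure D1:**
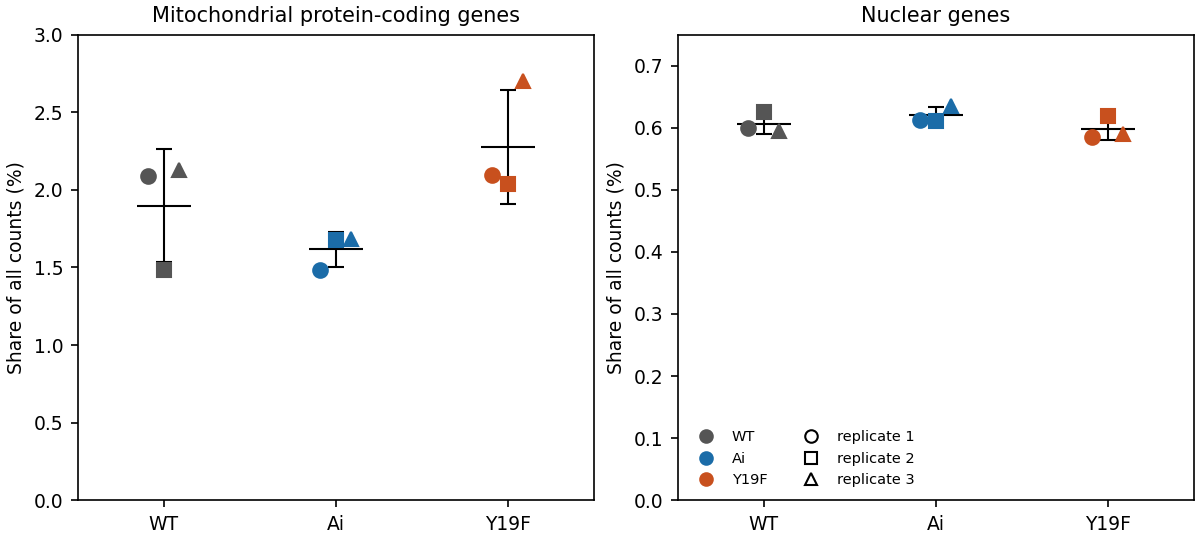
Share of all counts (%) taken by the mitochondrial (left) and nuclear (right) genes of the chain in each library, coloured by group and shaped by replicate, with the mean and SD as bars and both axes starting at 0. On the left the Y19F libraries lie between 2.04% and 2.70%, above the Ai libraries at 1.48% to 1.68%, and WT replicate 2 lies at 1.48%; on the right all libraries lie between 0.586% and 0.635%.

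Single mitochondrial genes followed this share. Y19F was compared with Ai first, since there the groups separated. All 13 genes had a higher mean in Y19F, and 12 passed edgeR's quasi-likelihood test at an adjusted p under 0.05 over the 16350 genes tested, where 9.57% of all genes were called higher and 11.1% lower. Their median log2 fold change was 0.50, against 0.00 for all genes tested. For these 12 genes every Y19F library was above every Ai library, which 16.7% of tested genes also showed (17.7% in the opposite direction). The mitochondrial genes moved largely together from library to library, so these 12 are not independent results.

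Among the complex I subunits, MT-ND1 had the largest difference, with 661, 804 and 772 CPM in Ai and 1068, 1072 and 1517 CPM in Y19F. Its log2 fold change was 0.71 ± 0.10 (SE, edgeR adjusted p = 1.83e-06). MT-ND2 rose by 0.50, MT-ND4 by 0.53, MT-ND4L by 0.48, MT-ND5 by 0.49 and MT-ND6 by 0.54 on the log2 scale. The cytochrome b gene MT-CYB, the mitochondrial subunit of complex III, had 512, 594 and 604 CPM in Ai and 782, 766 and 1043 CPM in Y19F (log2 fold change 0.60 ± 0.09, SE, edgeR adjusted p = 7.16e-06). MT-CO1, which holds the oxygen-binding centre of complex IV, had 4151, 4680 and 4741 CPM in Ai and 6233, 6049 and 8249 CPM in Y19F (0.60 ± 0.09, SE, edgeR adjusted p = 3.51e-06). The other complex IV genes changed less: MT-CO2 rose by 0.31 and MT-CO3 by 0.30 on the log2 scale. Of the ATP synthase genes, MT-ATP6 rose by 0.56 and MT-ATP8 by 0.50.

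MT-ND3, a small core subunit of complex I, was the 1 gene that was not called. It had 213, 242 and 263 CPM in Ai and 229, 272 and 260 CPM in Y19F, and the groups overlapped (log2 fold change 0.08 ± 0.06, SE). Leaving out any 1 library left 11 or 12 genes called in Y19F against Ai, and leaving out Y19F replicate 3 together with WT replicate 2 left 12. DESeq2 called 6 of them.

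**Figure D2:**
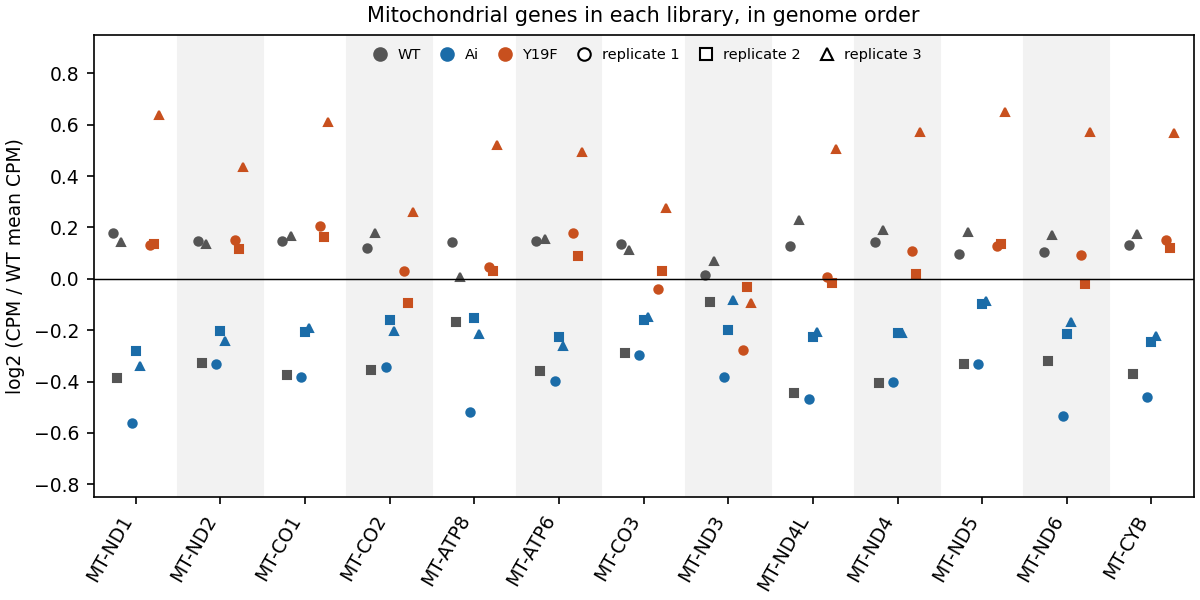
Each mitochondrial gene in each library, as log2 of its CPM over the mean CPM of the 3 WT libraries (vertical axis), in genome order along the horizontal axis, coloured by group and shaped by replicate. Triangles of Y19F (replicate 3) lie highest in 12 genes, the WT square (replicate 2) lies among the Ai points, and at MT-ND3 the groups overlap.

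Against WT, Ai had a lower mean in all 13 mitochondrial genes (median log2 fold change -0.27), and 5 passed the test: MT-ND1, MT-ND2, MT-ND3, MT-ATP6 and MT-CYB. Over all genes 2.73% were called lower and 1.82% higher. For MT-ND1 the WT libraries were at 1103, 746 and 1079 CPM, and the Ai libraries at 661, 804 and 772 CPM (-0.39 ± 0.10, SE, edgeR adjusted p = 0.0149). WT replicate 2 thus lay inside the Ai range. In none of the 13 genes did the Ai libraries all lie below WT, a pattern found in 10.3% of tested genes (9.31% above). Without WT replicate 2 the test called 12 genes and the median was -0.41, whereas 0 were called without WT replicate 1, without WT replicate 3 or without Ai replicate 1. Without Ai replicate 2 or 3, it called 1 and 2. DESeq2 called 0 genes on all 9 libraries, while 12 had an unadjusted edgeR p under 0.05.

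Y19F had a higher mean than WT in 12 of the 13 genes (median 0.24), of which 6 passed the test: MT-CO1, MT-ATP6, MT-ND1, MT-ND2, MT-ND5 and MT-CYB. Over all genes 7.61% were called higher and 10.4% lower. MT-CO1 had 5983, 4174 and 6067 CPM in WT and 6233, 6049 and 8249 CPM in Y19F (0.34 ± 0.09, SE, edgeR adjusted p = 0.00468). Replicates 1 and 2 of Y19F lay close to WT replicates 1 and 3, and Y19F replicate 3 stood above. No gene had all Y19F libraries above all WT libraries (15.4% of tested genes did, and 17.2% had them all below). Without WT replicate 2 the test called 1 gene, MT-CO1, and without Y19F replicate 3 it called 0. With both left out it called 0 higher and 3 lower, MT-CO2, MT-CO3 and MT-ND4L, and the median became -0.03. DESeq2 called 0 on all 9 libraries, while 9 had an unadjusted edgeR p under 0.05. Both sets of calls against WT thus changed with single libraries.

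The spread of the mitochondrial genes between replicates was wider than the test's estimate of it. Their median quasi-dispersion, the residual variance relative to the fitted counts model, was 14.9 before edgeR drew it towards the trend over all genes and 3.05 after. For the nuclear genes of the chain these medians were 0.993 and 0.931. The median coefficient of variation of a mitochondrial gene was 19% in WT, 8.84% in Ai and 18% in Y19F, and of a nuclear gene that passed the filter 7.96%, 6.67% and 6.55%. The adjusted p-values of mitochondrial genes are for this reason smaller than their own replicate spread alone would give.

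Within the mitochondrial mRNA pool, whose total is divided out here, both Y19F and Ai stood apart from the other groups in some genes. MT-CO1 took 27.8% to 28.3% of mitochondrial mRNA counts in WT and 27.9% to 28.3% in Ai, against 29.9%, 29.9% and 30.6% in Y19F. MT-CO2 took 14.0% to 14.3% in WT, 14.2% to 14.5% in Ai, and 13.4%, 12.6% and 12.1% in Y19F. All 3 Y19F libraries were thus above all others for MT-CO1 and below all others for MT-CO2. There were 2.24, 2.37 and 2.53 MT-CO1 counts for each MT-CO2 count in Y19F, against 1.96 to 2.02 in WT and 1.92 to 2.00 in Ai. All genes named in this paragraph were picked from the 13 after their shares were seen, so no test is given. There is no share over all genes to set beside these separations. Shares within the pool have a fixed total, so a larger share of 1 gene lowers the shares of others. WT replicate 2, low in total, had a ratio of 1.96, and Y19F replicate 1, close to WT in total, had 2.24. Y19F replicate 3, the highest in total, also had the highest ratio, 2.53. WT replicate 2 had the highest WT shares of MT-CO3 (12.7%) and MT-ND3 (1.74%). Y19F replicate 3 had the lowest Y19F shares of these genes (10.4% and 0.964%). Whether the composition follows the total was not tested. MT-CO3 took 10.4% to 11.8% in Y19F, below Ai at 12.4% to 12.8% and overlapping WT at 11.7% to 12.7%. MT-ND3 took 0.964% to 1.34% in Y19F, below Ai at 1.44% to 1.57%, with WT at 1.33%, 1.74% and 1.36%. MT-CYB separated all 3 groups, at 3.46% to 3.61% in Ai, 3.62% to 3.70% in WT and 3.76% to 3.86% in Y19F. Ai lay below both other groups in MT-ATP6, at 8.40% to 8.65% against 8.72% to 8.82% in WT and 8.79% to 9.17% in Y19F. It also lay below both in MT-ND1, at 4.47% to 4.79% against 4.96% to 5.21% in WT and 5.13% to 5.62% in Y19F. In MT-ND5 Ai lay above WT, at 3.70% to 3.88% against 3.48% to 3.64%.

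**Figure D3:**
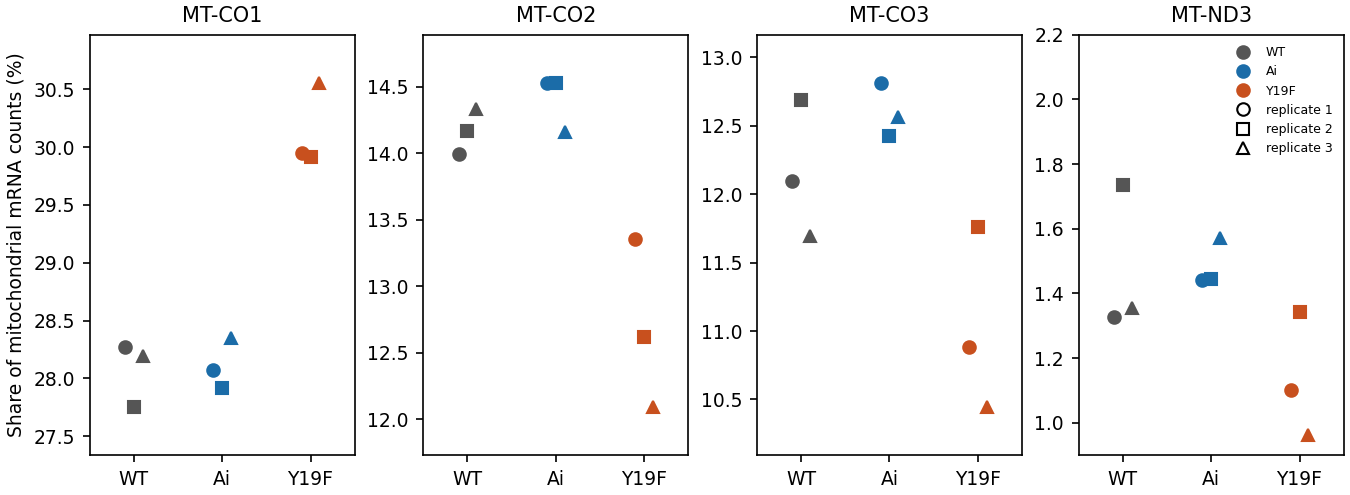
Share of mitochondrial mRNA counts (%) taken by 4 genes in each library, by group and replicate (the vertical axes do not start at 0). The Y19F libraries lie at 29.9% to 30.6% for MT-CO1, above every other library, and at 12.1% to 13.4% for MT-CO2, below every other library.

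Some counts of mitochondrial genes have close nuclear copies. Pseudogenes named for MT-ND2 held 4.5% as many counts as MT-ND2 over the 9 libraries, and those named for MT-ATP6 held 3.59% as many as MT-ATP6. All others held at most 0.135%.

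Of the 108 nuclear genes 101 passed the filter on low counts. The others were the readthrough genes ATP5MF-PTCD1 and NDUFC2-KCTD14, the copies UQCRHL and ATP5MGL, and the tissue isoforms COX8C, COX6A2 and COX4I2. Genes that passed ranged from 0.144 to 272 CPM per kb with a median of 16.1, while the mitochondrial genes ranged from 156 to 3853. The highest in each complex are given in CPM per kb of listed length over the 9 libraries. They were NDUFS5 (complex I accessory subunit, 218) and SDHB (iron-sulphur subunit of complex II, 30.2). In the others they were UQCRQ (complex III, 82.0), COX8A (complex IV, 110.0) and ATP5F1B (catalytic beta subunit of ATP synthase, 272). The place of SDHB rests on listed lengths. SDHC was divided by a listed length of 14160 bases, while the GENCODE annotation gives it 1902 exonic bases. By CPM, SDHA and SDHC were above SDHB in every group, with WT means of 130, 94.6 and 74.2 CPM.

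Several subunits of complexes that were otherwise well covered had very low counts per kilobase. NDUFA9 had 81 to 180 counts per library, divided here by a listed length of 10391 bases. The complex I core subunit NDUFV2 was at 0.542 CPM per kb, its accessory subunit NDUFA9 at 0.524, NDUFA7 at 0.635 and the complex III subunit UQCRH at 0.510. In the GENCODE 44 annotation 28.4% of the exonic bases of NDUFV2 and 32.5% of those of NDUFA7 lie in another gene on the same strand, and 10.6% of those of NDUFA9. UQCRH shares none, but has a retrocopy, UQCRHL, that was not above 0.285 CPM in any library. Of the 23 nuclear genes with at least 10% of their exonic bases in another gene, a limit set after the levels were seen, 10 were under 3 CPM per kb, as were 13 of the other 85. The levels of these genes are uncertain, since reads that fit a pair of genes may not have been counted, which was not tested. The 23 include genes called in Y19F against WT: NDUFC1 (12.0% of exonic bases), NDUFC2 (18.6%), SDHD (11.4%) and COX15 (20.7%).

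Where a subunit has several isoforms, SKOV3 libraries held mainly the common one by CPM. COX7B2 was near COX7B only per kilobase of listed length. COX4I1 was at 183, 186 and 190.0 CPM in WT, Ai and Y19F, whereas the lung isoform COX4I2 had 0 counts in all 9 libraries, which at 3 counts allows up to 0.102 to 0.165 CPM a library. The heart and muscle form COX6A2 also had 0 counts, against means of 26.8 to 28.5 CPM for COX6A1. COX7A1, the other muscle form, was at 7.36, 5.66 and 4.70 CPM, against 75.9 to 83.3 CPM for COX7A2 and 63.2 to 67.8 CPM for the supercomplex factor COX7A2L. COX7B2, known from testis, was at 13.6, 16.2 and 11.6 CPM in WT, Ai and Y19F, against 58.4, 61.0 and 53.4 CPM for COX7B. Divided by listed lengths of 807 and 3024 bases, these gave 17.1 CPM per kb for COX7B2 and 19.1 for COX7B over the 9 libraries. COX6B2 and NDUFA4L2 stayed at 0.160 and 0.199 CPM per kb against 76.2 for COX6B1 and 21.5 for NDUFA4. Of these, only COX7B2 was called in any comparison, at -0.47 ± 0.17 in Y19F against Ai (SE, edgeR adjusted p = 0.0482), with overlapping libraries.

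ALK inhibition left the nuclear genes without a call. In Ai against WT 0 of 101 passed edgeR's test, beside 2.73% of all genes called lower and 1.82% higher, 3 had an unadjusted p under 0.05, and the median log2 fold change was 0.01. DESeq2 gave an adjusted p for 95 of the genes and called 0. Groups did not overlap in 3 genes that were lower and 3 that were higher in Ai, 2.97% each, against the 10.3% and 9.31% of all genes given above. ATP5F1B, the highest nuclear member, was at 649, 659 and 615 CPM in WT and 625, 634 and 618 CPM in Ai (-0.04 ± 0.04, SE). The error was far larger for weakly counted genes such as UQCRH (-0.85 ± 0.73, SE), in which no difference was detectable at this depth.

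In Y19F against WT 14 of the 101 genes, 13.9%, were called lower, beside 10.4% of all genes, and 5, 4.95%, higher, beside 7.61%. Their median was -0.05 and 66 of 101 were below 0. Groups did not overlap in 22 genes that were lower in Y19F and 11 that were higher, 21.8% and 10.9%, beside 17.2% and 15.4% of all genes. As a set the nuclear genes were thus near the level of all genes, and the called members are described one by one. Without WT replicate 2 the lower count was 7, without Y19F replicate 1 or 3 it was 7, and without both libraries named above it was 5.

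**Figure D4:**
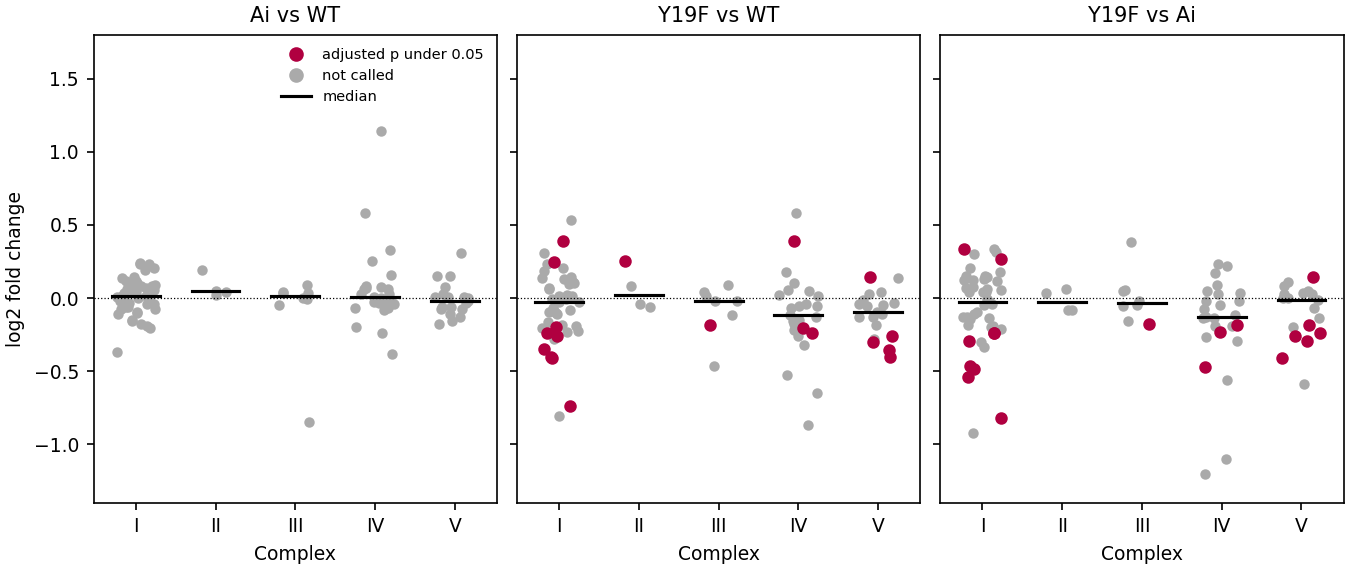
Log2 fold change (vertical axis) of the 101 tested nuclear genes by complex (I to V) in the 3 comparisons, with genes at an adjusted p under 0.05 in red and the median of each complex as a line. No gene is red in Ai against WT, 14 lie below and 5 above 0 in Y19F against WT, and 16 below and 3 above in Y19F against Ai.

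In complex I, 7 of the 30 accessory subunits, which surround the catalytic core, fell in Y19F against WT (23.3%, beside 10.4% of all genes) and 1 rose (3.33%, beside 7.61%). Of the 7 nuclear core subunits 0 were called by edgeR or by DESeq2, 2 of them with an unadjusted p under 0.05, a list too short to be read against these shares. The difference between accessory and core subunits was not tested. NDUFC1, a small membrane accessory subunit at chr4:139266880-139302551, had the largest difference among the called genes. The weakly counted NDUFV2 had -0.81 ± 0.46 (SE) and was not called. NDUFC1 had 25.2, 22.6 and 21.7 CPM in WT, 24.9, 24.7 and 24.1 CPM in Ai, and 13.1, 12.9 and 15.7 CPM in Y19F. Every Y19F library was thus below all others in NDUFC1. The log2 fold change of NDUFC1 was -0.74 ± 0.12 against WT (SE, edgeR adjusted p = 1.36e-05) and -0.82 ± 0.12 against Ai (SE, edgeR adjusted p = 2.11e-06). The 26 tested genes within 5 Mb of it had a median of -0.20 in Y19F against WT.

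NDUFB1, at chr14:92116122-92121917, fell by 0.40 on the log2 scale, with 23.7 to 31.0 CPM in WT and 19.2 to 21.1 CPM in Y19F. NDUFA8, an intermembrane-space subunit at chr9:122144058-122159819, fell by 0.35, with 25.4 to 31.2 CPM in WT and 19.1 to 23.2 CPM in Y19F. NDUFA1, which is needed for assembly, fell by 0.41, though Y19F replicate 2 at 24.2 CPM lay inside the WT range of 21.6 to 31.2 CPM. The remaining fallers were NDUFS6 (-0.26), NDUFB10 (-0.24) and NDUFS5 (-0.20). NDUFC2, the partner of NDUFC1 in the complex, was called in the opposite direction, with 36.7 to 44.2 CPM in WT and 44.3 to 51.7 CPM in Y19F (0.25 ± 0.09, SE, edgeR adjusted p = 0.0494). Of the 8 assembly factors NDUFAF7, a methyltransferase acting on a core subunit, rose by 0.39.

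Complex II showed 1 call. SDHD, a membrane anchor, had 32.1, 35.2 and 32.1 CPM in WT, 37.1, 38.8 and 37.7 CPM in Ai, and 37.1, 41.8 and 39.7 CPM in Y19F. Both Ai and Y19F lay above WT, and only Y19F passed the test (0.25 ± 0.09, SE, edgeR adjusted p = 0.0363), with Ai at 0.19 ± 0.09 (adjusted p = 0.281). Y19F and Ai were not shown to differ (0.06 ± 0.09, SE). The flavoprotein SDHA was at 130, 134 and 137 CPM in WT, Ai and Y19F, SDHB at 74.2, 76.5 and 72.3 CPM, and the other anchor SDHC at 94.6, 96.0 and 90.9 CPM, with no call. Pseudogenes named for SDHA held 19.7% as many counts as SDHA itself.

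In complex III only UQCRQ was called, at -0.18 ± 0.06 (SE, edgeR adjusted p = 0.0348), with WT at 114 to 138 CPM and Y19F at 108 to 116 CPM. The large core proteins UQCRC1 (-0.02) and UQCRC2 (-0.02) were nearly equal. In complex IV COX7C had 132, 136 and 115 CPM in WT and 106, 114 and 104 CPM in Y19F (-0.24 ± 0.06, SE, edgeR adjusted p = 0.00391), and COX5A fell by 0.21. COX15, an enzyme of haem A synthesis, rose by 0.39, with 11.2 to 13.1 CPM in WT, 13.3 to 14.7 CPM in Ai and 15.6 to 16.9 CPM in Y19F.

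In ATP synthase the calls fell on subunits of different parts of the enzyme. ATP5F1E, the epsilon subunit of the rotor stalk at chr20:59025467-59032382, had 87.6, 87.7 and 94.0 CPM in WT, 86.6, 82.8 and 102 CPM in Ai, and 67.3, 66.1 and 70.6 CPM in Y19F. Every Y19F library was below all others, with log2 fold changes of -0.40 ± 0.07 against WT (SE, edgeR adjusted p = 5.58e-05) and -0.41 ± 0.07 against Ai (SE, edgeR adjusted p = 3.40e-05). ATP5PF of the peripheral stalk fell by 0.30, with 72.6 to 76.2 CPM in WT and 56.2 to 63.1 CPM in Y19F. ATP5MPL, a small membrane subunit at chr14:103912288-103928269, fell by 0.35, with 56.4 to 65.6 CPM in WT and 45.1 to 50.5 CPM in Y19F. Of the 3 genes for identical mature subunit c, ATP5MC3 fell by 0.26, while ATP5MC1 (-0.13) and ATP5MC2 (0.03) were not called. ATP5F1C, the gamma subunit of the rotor at chr10:7788129-7807815, rose by 0.15, with 120, 129 and 123 CPM in WT and 137, 137 and 138 CPM in Y19F.

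**Figure D5:**
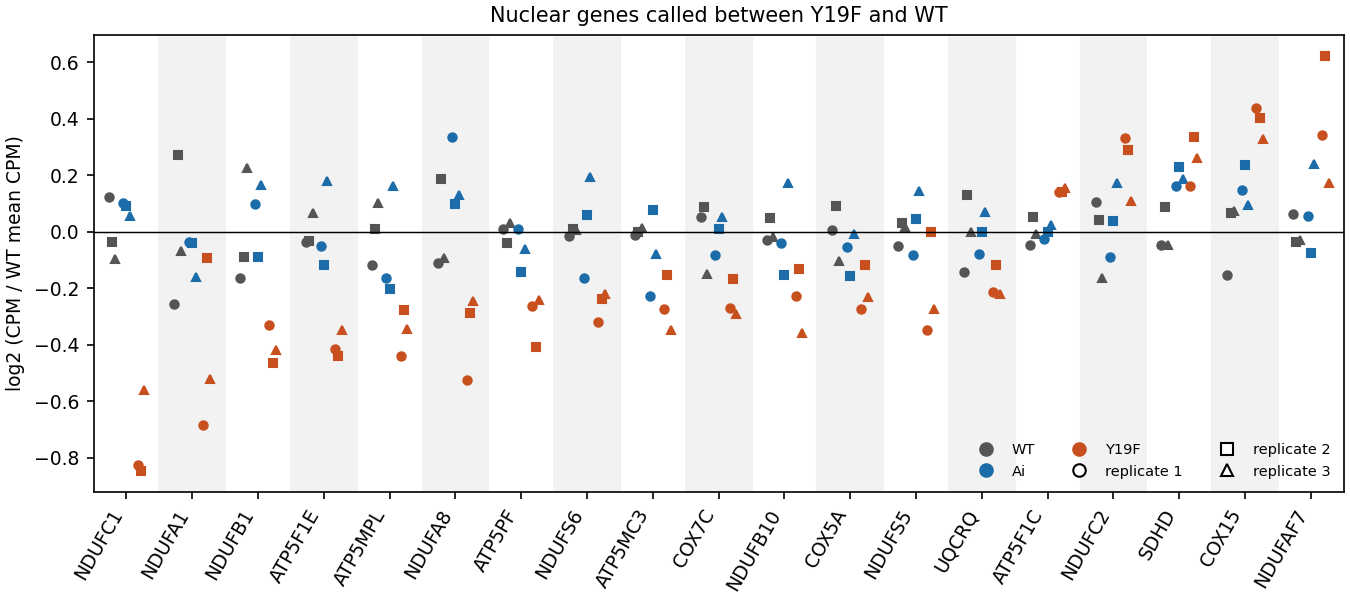
The 19 nuclear genes called between Y19F and WT in each library, as log2 of CPM over the WT mean, ordered by log2 fold change and marked by group and replicate. NDUFC1 lies lowest at -0.74 on average with all Y19F points below all others, and in NDUFA1, NDUFS5 and UQCRQ at least 1 Y19F point lies within the WT range.

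Y19F against Ai gave 16 genes lower, 15.8% beside 11.1% of all genes, and 3 higher, 2.97% beside 9.57%. Groups did not overlap in 26 lower and 8 higher genes, 25.7% and 7.92%, beside 17.7% and 16.7% of all genes. Of the 14 genes lower than WT, 12 were also lower than Ai, and of the 5 higher, ATP5F1C was. Both comparisons use the same Y19F libraries, so these overlaps are not independent. The genes called lower only against Ai were NDUFA3, COX6C, COX7B2 and ATP5IF1, the inhibitor of ATP synthase. NDUFA3 had 34.0, 29.2 and 33.6 CPM in Ai and 23.2, 25.7 and 20.5 CPM in Y19F, with WT between at 26.4 to 30.2 CPM (-0.48 ± 0.10 against Ai, SE, edgeR adjusted p = 0.000821). ATP5IF1 had 52.2 to 56.8 CPM in Ai and 43.2 to 49.6 CPM in Y19F. NDUFS7, a core subunit of complex I, rose by 0.33 and the assembly factor NDUFAF8 by 0.27.

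Of the 19 calls against WT, 5 passed the test whichever 1 of the compared libraries was left out: NDUFC1, ATP5F1E, ATP5PF, ATP5MPL and COX7C. Against Ai 6 of 19 did: NDUFC1, ATP5F1E, COX7C, NDUFA3, NDUFA8 and NDUFB1.

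Position and length moved with some of these values, and their part in the results was not tested. The tested genes within 5 Mb of ATP5MPL and of NDUFB1, both on chromosome 14, had medians of -0.22 and -0.22 in Y19F against WT, and those near ATP5F1C had a median of 0.31, above its own 0.15. Near ATP5PF and NDUFA8 the medians were -0.11 and -0.11, and near ATP5F1E it was -0.02. Of the 14 lower genes 9 have a listed length under 2000 bases. These were 3 of the 10 tested members under 1000 bases and 6 of the 27 from 1000 to 2000 bases. Of other protein-coding genes of those lengths, 1.89% and 6.55% were called lower. The 106 other protein-coding genes under 1000 bases had a median of 0.09 in Y19F against WT, while the 10 members of that length had -0.13. From 1000 to 2000 bases the 870 other genes had a median of 0.05 and the 27 members -0.09.

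Promoters are shown because nuclear respiratory genes are known as targets of NRF1 and of ETS-family factors such as GABP. The 4 shown were chosen among the 5 promoters of called members that hold the NRF1 letters, of 16 with a promoter in the table, and the fifth is that of NDUFS6. Sequences are RefSeq's, GRCh38.p14, from 250 bases before to 50 after a listed start, and 86 of the 108 nuclear genes matched by symbol. Capitals mark the letters GCGCATGCG (NRF1) or CCGGAAG (ETS), searched on both strands. The NRF1 letters run into their own reverse complement, so GCGCATGCGC is a match on each strand.
ATP5PF, chr21:25735005-25735304, minus strand: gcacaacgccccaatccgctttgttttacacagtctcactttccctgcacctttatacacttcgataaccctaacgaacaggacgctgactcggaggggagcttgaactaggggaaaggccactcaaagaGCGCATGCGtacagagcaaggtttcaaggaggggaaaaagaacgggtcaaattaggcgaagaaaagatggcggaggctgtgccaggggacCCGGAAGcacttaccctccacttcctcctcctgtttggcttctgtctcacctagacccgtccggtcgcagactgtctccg
NDUFA8, chr9:122159730-122160029, minus strand: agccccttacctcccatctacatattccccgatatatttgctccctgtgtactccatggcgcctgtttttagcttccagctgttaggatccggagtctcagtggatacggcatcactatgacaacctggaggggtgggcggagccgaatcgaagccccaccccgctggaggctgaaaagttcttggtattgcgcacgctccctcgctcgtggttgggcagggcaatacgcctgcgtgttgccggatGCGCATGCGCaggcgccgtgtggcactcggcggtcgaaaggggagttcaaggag
SDHD, chr11:112086623-112086922, plus strand: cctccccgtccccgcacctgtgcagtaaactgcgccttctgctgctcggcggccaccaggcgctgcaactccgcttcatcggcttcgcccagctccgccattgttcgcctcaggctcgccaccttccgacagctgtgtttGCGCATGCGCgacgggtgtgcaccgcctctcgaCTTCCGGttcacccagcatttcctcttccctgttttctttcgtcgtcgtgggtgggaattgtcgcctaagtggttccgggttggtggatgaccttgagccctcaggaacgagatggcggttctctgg
ATP5F1C, chr10:7787927-7788226, plus strand: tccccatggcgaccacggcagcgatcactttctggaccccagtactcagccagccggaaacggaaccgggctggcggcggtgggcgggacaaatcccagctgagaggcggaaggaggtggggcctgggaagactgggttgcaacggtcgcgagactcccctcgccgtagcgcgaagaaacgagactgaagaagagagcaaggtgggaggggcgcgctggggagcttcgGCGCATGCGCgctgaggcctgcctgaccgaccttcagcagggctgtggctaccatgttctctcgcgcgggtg
ATP5PF and NDUFA8 were lower in Y19F, and SDHD and ATP5F1C were higher. Over the promoters of nuclear members, of which some genes have several, 13.9% of 108 held the NRF1 letters and 27.8% the ETS letters, beside 1.92% and 10.3% of all 35116 promoters. Of the called members with a promoter in the table, 3 of 12 lower and 2 of 4 higher held the NRF1 letters, and likewise 3 and 2 held the ETS letters. NDUFC1 and ATP5F1E held neither in the first listed window.

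Genes that work with the chain are given by list. Their counts stand beside shares over all genes of 2.73% lower and 1.82% higher in Ai against WT, 10.4% and 7.61% in Y19F against WT, and 11.1% and 9.57% in Y19F against Ai. Of 26 genes for mitochondrial transcription and RNA processing, 3 fell and 3 rose in Y19F against WT, 1 fell and 0 rose in Ai against WT by either tool, and 1 fell and 5 rose in Y19F against Ai. SLIRP, which protects mitochondrial mRNAs together with LRPPRC, was at 42.1 ± 2.90 CPM in WT, 37.4 ± 8.54 in Ai and 29 ± 0.805 in Y19F (SD, n = 3), a log2 fold change of -0.54 ± 0.11 for Y19F against WT (SE, edgeR adjusted p = 0.000456). LRPPRC itself was at 245 ± 7.78 CPM in WT, 220.2 ± 5.05 in Ai and 224 ± 6.19 in Y19F (SD, n = 3), and was called lower than WT in both, with a log2 fold change of -0.16 in Ai (edgeR adjusted p = 0.0332) and of -0.13 in Y19F (edgeR adjusted p = 0.0336). GRSF1, an RNA-binding protein of mitochondrial RNA granules, fell by 0.23 in Y19F against WT. POLRMT, the polymerase of the mitochondrial genome, was at 167 ± 4.85 CPM in WT, 169 ± 8.79 in Ai and 191 ± 7.48 in Y19F (SD, n = 3). It was called higher in Y19F, by 0.20 against WT (edgeR adjusted p = 0.00402) and by 0.17 against Ai (edgeR adjusted p = 0.0107). Of 11 genes for copying mitochondrial DNA, 0 were called in Ai against WT by edgeR or DESeq2 (1 with an unadjusted p under 0.05), and the thymidine kinase TK2 was among 2 that rose in Y19F against WT. TWNK, the helicase, was at 14.4 ± 0.622, 11.1 ± 0.543 and 15.1 ± 2.53 CPM in WT, Ai and Y19F (SD, n = 3), and was called higher in Y19F against Ai (0.44 ± 0.14, SE, edgeR adjusted p = 0.0225).

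Of 10 tested regulators of nuclear respiratory genes, YY1 fell by 0.20 in Y19F against WT and 1 rose, and PPRC1 rose by 0.31 in Y19F against Ai. The 78 genes of the mitochondrial ribosome, which translates the 13 mRNAs, gave 5 lower and 8 higher in Y19F against WT, and 3 lower (3.85%) and 12 higher (15.4%) in Y19F against Ai, with MRPS16 (0.34) and MRPL15 (0.40) among the latter. In Ai against WT 0 of the 78 were called by edgeR or DESeq2, though 57 had a mean below WT (median -0.06, 2 with an unadjusted p under 0.05). Of 35 assembly factors outside the rule 0 were called in Y19F against WT by edgeR or DESeq2 (5 with an unadjusted p under 0.05), and COA4 rose by 0.51 and LYRM7 fell by 0.46 in Y19F against Ai. Among 18 genes of electron carriers and ubiquinone synthesis 3 fell and 1 rose in Y19F against WT, with COQ4 up by 0.34 and ETFA, an electron carrier of fat oxidation, down by 0.22. Of 13 citric acid cycle genes 3 fell and 0 rose in Y19F against WT (DESeq2 called 1 higher), among them OGDH (-0.27) and DLST (-0.24), both of the 2-oxoglutarate dehydrogenase complex.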

How the data were processed

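Total RNA of SKOV3 cells was sequenced with Illumina libraries. The authors deposited 1 table of read counts per gene for the 9 libraries, made per the labels with CASAVA, HISAT2 2.0.5 and featureCounts 1.5.0-p3 on GRCh38 (hg38); no column was left unmapped. Counting of reads that fit several genes, and strand, are not given in the sources used here. Counts were tested with edgeR 4.0.16 (R 4.3.3) in 1 quasi-likelihood fit of all libraries after filterByExpr (minimum count 10, total 15) and TMM scaling (factors 0.986 to 1.01). Adjusted p-values are Benjamini-Hochberg over 16350 genes, called under 0.05. SE is the log2 fold change over the square root of F. CPM are TMM-scaled. The script was tested on simulated data. Replicate numbers did not pair libraries (correlations of deviations -0.0116 to 0.0260).

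Alternatives were DESeq2 1.42.0, other scalings, filters, gene sets and samples, a replicate block, a gene-length trend and leaving out libraries. Leaving out WT replicate 2 with Y19F replicate 3 was added after seeing the data. Named nuclear genes were the 10 of smallest adjusted p among those called in each comparison, fixed isoform families, SDHA to SDHD and the highest of each complex; of each further list, the 2 of smallest adjusted p. Other called genes, and subunits with low counts per kilobase, were named after their values were seen. Members and lists were chosen with earlier results of these data known.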

Additional observations from a re-analysis of the deposited data

Results flagged for a closer look

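In 4 mitochondrial genes Ai and Y19F were called in opposite directions against the same WT libraries, lower in Ai and higher in Y19F, and the difference itself passed edgeR's test as Y19F against Ai. Its log2 fold change was 0.71 in MT-ND1, 0.60 in MT-CYB, 0.56 in MT-ATP6 and 0.50 in MT-ND2. The difference between Y19F and Ai was called in these 4 genes under every alternative run. In Ai against WT all 4 calls were lost without WT replicate 1, WT replicate 3 or Ai replicate 1. With 1 compared library left out, MT-CYB, MT-ATP6 and MT-ND2 were still called there in 1 of 6 fits, and MT-ND1 in 3. In Y19F against WT all 4 calls were lost without Y19F replicate 3 or WT replicate 2. DESeq2 called 0 mitochondrial genes in either comparison against WT.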

How the results depend on the processing

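Y19F against Ai, 12 mitochondrial genes higher, gave 11 to 12 with 1 library left out and 6 by DESeq2. The 5 lower in Ai against WT became 0 by DESeq2 and with the gene-length trend removed, 1 by library size alone, 12 with no filter, 8 with only the compared groups, 12 without WT replicate 2 and Y19F replicate 3, 0 to 12 with 1 library left out, and 11 with the replicate block. The 6 higher in Y19F against WT became 0 by DESeq2, 10 with no filter, 2 with the length trend removed (1 lower) and 0 to 9 with 1 library left out. Without WT replicate 2 and Y19F replicate 3 they became 0, with 3 lower. The share difference of Y19F against WT turned from 0.379 to -0.0421 percentage points there (0.167 to 0.500 with 1 library left out). Of the 13 mitochondrial log2 fold changes of this comparison 11 were below 0 there, against 1 with all libraries. Among those called in either setting, the sign turned in MT-CO2 (-0.17, and -0.07 to 0.17 with 1 left out), MT-CO3 (-0.12, and -0.03 to 0.17), MT-ND4L (-0.18, and 0.0024 to 0.32), MT-ND1 (-0.021, and 0.14 to 0.42), MT-CYB (-0.011, and 0.14 to 0.39), MT-ATP6 (-0.0083, and 0.12 to 0.35) and MT-ND5 (-0.0027, and 0.14 to 0.43). Nuclear genes lower in Y19F against WT, 14, became 9 by library size alone, 5 without both libraries and 7 to 14 with 1 left out; the 5 higher became 3 by DESeq2, 1 with no filter, 1 with the trend removed and 0 to 6. In Y19F against Ai 16 lower became 9 without both libraries and 7 to 18, and 3 higher became 1 with the trend removed and 0 to 2. The cause was not tested. The block moved no other count by over 1.5 times. Other counts kept within 1.5 times. Depth limits genes near the filter, such as UQCRH.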
